A study of Mus musculus with 28 samples.

Results

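The 44 genes described here are a hand-chosen set of mouse cell cycle genes among 28244 genes in the count table. They were listed by name from their known roles, with no measured value in the rule but with earlier results of these data known. Of the 44 genes, 19 act in licensing and copying DNA in S phase, 19 act in G2 and mitosis, 3 are transcription factors of the cell cycle (Foxm1, Mybl2 and E2f1) and 3 are the D-type cyclins (Ccnd1, Ccnd2 and Ccnd3). The study derived neural stem cell lines from organs outside the central nervous system, called peripheral neural stem cells (pNSCs), and set their transcriptomes beside brain neural stem cells (NSCs). RNA-seq read counts were given for 28 samples in 11 groups. All members were counted in every sample, with the lowest count being 36 reads, for Gins1 in lung cells.

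The samples fell into 3 experiments. In the experiment taken as the Nes-GFP experiment, 2 samples each were given for brain NSCs, for pNSCs of lung and of tail, and for dissociated cells of both organs. Nes-GFP mice express GFP under regulatory elements of Nestin, and the pNSC lines came from GFP+ cells sorted from adult lung and postnatal tail. The labels of these 10 samples name no reporter, and they were placed in that experiment because their groups and sample numbers match it. The Sox2-GFP experiment, with GFP knocked in at Sox2, had 3 samples each of brain NSCs and of lung pNSCs from postnatal GFP+ lung cells. In the Wnt1-Cre experiment, Wnt1-Cre with the R26-mTmG reporter turns neural crest descendants from Tomato+ to GFP+. Its tail pNSCs and dorsal root ganglion (DRG) pNSCs came from postnatal tissue, were Tomato+ and GFP-, and were not sorted before culture. They had 3 samples each beside 3 samples of Wnt1-Cre brain NSCs. A further 3 samples were neural crest stem cells (NCSCs) from the DRG of adult wild-type mice, which the labels also call NSC. The labels give the strain of all samples as C57BL/6, while the study's methods name CD1 and CD1 x C3H backgrounds for wild-type mice and in-house crosses for the transgenic lines. A pNSC line was grown from 1 hand-picked cluster, so that a line and its reporter cannot be told apart. All NSC and pNSC lines grew in serum-free medium with EGF and bFGF, which act as mitogens for these cells. The age of the lung cells and tail cells is not in the labels. The study's methods derive brain NSCs from adult or postnatal mice without naming the age for each experiment.

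A dividing cell passes through G1, S, G2 and M phase. D-type cyclins, with Cdk4 or Cdk6, and then E-type cyclins, with Cdk2, release E2F transcription factors from the retinoblastoma protein, and E2F turns on the genes that license origins and copy DNA. The genes of G2 and mitosis are switched on later by B-MYB (Mybl2) and FOXM1, which reach promoters through the MuvB complex at an element called the cell cycle genes homology region (CHR), often beside CCAAT boxes bound by NF-Y. Because cells outside the cycle make little of either set, the RNA level of these genes is widely read as a measure of cycling cells in a sample. NSCs in culture divide continually under EGF and bFGF, while most cells of an organ rest.

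The S-phase members were Mcm2 to Mcm7, the 6 subunits of the replicative helicase, Mcm10, Cdc6, Cdt1, Cdc45, Gins1 and Gins2, which load or activate it, Pcna, the sliding clamp of the DNA polymerase, Rrm1 and Rrm2, the subunits of ribonucleotide reductase, Tyms and Tk1, which make thymidine nucleotides, and the E-type cyclins Ccne1 and Ccne2. The G2 and mitosis members were the cyclins Ccna2, Ccnb1 and Ccnb2 with their kinase Cdk1, Cdc20, the activator of the anaphase-promoting complex, the kinases Aurka, Aurkb, Plk1, Bub1 and Bub1b; and the chromosome and spindle proteins Mki67, Top2a, Birc5, Kif11, Kif20a, Cenpa, Cenpe, Cenpf and Tpx2.

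Promoters of 33 of the 44 members were present in a RefSeq table for the mouse assembly GRCm38.p6, as 300 bases each with 250 before and 50 after the transcription start. They were searched on both strands for TTNNCGC with N limited to C or G, an E2F element, for TTTGAA or TTCGAA, the CHR, and for CCAAT. The E2F letters were present in 8 of 15 S-phase promoters and 3 of 15 G2 and mitosis promoters, against 9.687% of 27025 promoters of all genes. The CHR letters were present in 3 of 15 S-phase and 12 of 15 G2 and mitosis promoters, against 19.44% of all promoters, and the same 12 mitotic promoters also held a CCAAT box, against 7.704% of all. A CCAAT box, with or without a CHR, was found in 10 of 15 S-phase and 14 of 15 mitotic promoters, against 37.92% of all. In Mcm7 and Ccnb1 the letters of an E2F element and a CCAAT box overlapped. The 5 stretches shown are the 200 bases upstream of the start, 5′ to 3′ on the gene's strand, with matches on either strand in capitals. Mcm5 (chr8:75109309-75109508, + strand) and Mcm6 (chr1:128359706-128359905, - strand) show the E2F pattern of S-phase genes. Cdk1 (chr10:69352913-69353112, - strand) holds both E2F and CHR letters. Cdc20 (chr4:118437344-118437543, - strand) and Ccnb2 (chr9:70421555-70421754, - strand) show CHR letters with CCAAT boxes. The CHR letters shown for Ccnb2 begin at base -167, upstream of its CCAAT boxes. Another Ccnb2 match begins at base 5 after the start and so lies outside the stretch shown.
Mcm5: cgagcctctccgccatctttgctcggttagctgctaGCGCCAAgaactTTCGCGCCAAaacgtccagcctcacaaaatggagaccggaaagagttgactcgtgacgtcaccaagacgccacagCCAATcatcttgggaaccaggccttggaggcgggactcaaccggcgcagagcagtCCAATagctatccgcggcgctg
Mcm6: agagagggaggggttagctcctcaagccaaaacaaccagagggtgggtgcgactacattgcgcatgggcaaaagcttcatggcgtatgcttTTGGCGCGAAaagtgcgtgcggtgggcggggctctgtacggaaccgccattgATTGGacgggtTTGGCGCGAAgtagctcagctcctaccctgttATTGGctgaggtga
Cdk1: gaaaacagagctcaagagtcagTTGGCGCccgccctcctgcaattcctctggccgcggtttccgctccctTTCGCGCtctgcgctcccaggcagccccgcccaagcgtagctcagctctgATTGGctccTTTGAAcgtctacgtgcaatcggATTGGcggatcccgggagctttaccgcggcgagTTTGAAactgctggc
Cdc20: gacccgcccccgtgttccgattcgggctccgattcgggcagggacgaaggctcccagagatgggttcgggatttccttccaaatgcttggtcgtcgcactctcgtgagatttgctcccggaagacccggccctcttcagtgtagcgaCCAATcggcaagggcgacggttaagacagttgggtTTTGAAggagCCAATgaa
Ccnb2: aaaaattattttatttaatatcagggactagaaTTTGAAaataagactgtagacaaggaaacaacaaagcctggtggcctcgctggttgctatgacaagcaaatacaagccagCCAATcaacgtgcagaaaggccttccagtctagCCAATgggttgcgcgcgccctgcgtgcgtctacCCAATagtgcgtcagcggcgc
In Mcm5 and Mcm6 the E2F letters occur on both strands as overlapping runs, and in Cdc20 and Cdk1 a TTTGAA lies within a short distance of the start. These matches describe letters and not bound sites.

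Libraries held 9808246 to 22637031 counted reads, and the Wnt1-Cre brain NSC and DRG pNSC libraries were the shallowest, at up to 11431445 reads. Levels are given as cpm, read counts relative to the scaled library total, with scaling over all 28 samples. Replicates lay close together: the median coefficient of variation of the 44 members within a group was 1.47% to 5.23%. The third NCSC sample stood apart from its 2 fellows, with a mean chi-square per gene of 16.8 and 21.02 against them, while all other pairs of replicates gave 1.09 to 2.82, so NCSC results are also given without it. The study calls its replicates biological, but the labels do not say that they came from separate cultures or animals, so p-values measure the spread between these samples, which may be technical. A list of 9 neural stem cell markers summed to 5966 to 8228 cpm in the 8 NSC and pNSC groups, with none of them at 0, and to 1459 to 1847 cpm in NCSCs, 332.4 to 355.9 cpm in lung cells and 116 cpm in tail cells. Adjusted p-values are from edgeR's quasi-likelihood test fitted over all genes of an experiment. A gene was called when its adjusted p was under 0.05 and its change at least 2-fold. The third NCSC sample was part of the Wnt1-Cre fit, so it also entered the spread and p-values of Wnt1-Cre pNSCs against brain NSCs. With only the 2 groups compared in the fit, 7 members were still called for tail pNSCs and 1 for DRG pNSCs.

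The summed level of the members was highest in most NSC and pNSC lines and lowest in lung cells, with tail cells and NCSCs close to the 2 lowest lines. The 19 S-phase members together reached 2819 and 2803 cpm in Nes-GFP brain NSCs, 2784 and 2759.8 in Nes-GFP lung pNSCs and 3187 and 3266 in Nes-GFP tail pNSCs. They reached 2489, 2528 and 2541 cpm in Wnt1-Cre brain NSCs, 1502, 1491 and 1513 in Wnt1-Cre tail pNSCs and 3391, 3335 and 3335 in DRG pNSCs. In the Sox2-GFP lines the S-phase sum was 1038, 1035 and 1060.3 cpm in brain NSCs and 2975, 2958 and 2992 in lung pNSCs. Among the NSC and pNSC groups, Sox2-GFP brain NSCs were lowest and Wnt1-Cre tail pNSCs next, and these 2 groups did not overlap with each other or with the other 6. NCSCs had 1473, 1443 and 1449.7 cpm, tail cells 1402 and 1393 cpm and lung cells 351 and 359.9 cpm. In these bulk samples fewer cycling cells and less of each RNA per cell cannot be told apart.

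The 19 G2 and mitosis members placed the 8 NSC and pNSC groups in the same order over a narrower range. Their sum was 2552, 2534 and 2561 cpm in Sox2-GFP brain NSCs and 2713, 2710.3 and 2675 in Wnt1-Cre tail pNSCs, the lowest 2 of the 8 NSC and pNSC groups. The highest was 5147, 5133 and 4997 cpm in DRG pNSCs. Over those 8 groups the median S-phase member spanned a 3.51-fold range of group means and the median mitotic member a 2.06-fold range. Over all 11 groups the order turned round, at 10.6-fold for S-phase and 23.9-fold for mitotic members, as lung cells held only 226 and 224 cpm of the mitotic set. The mitotic sum divided by the S-phase sum was 2.42 to 2.46 in Sox2-GFP brain NSCs, 1.77 to 1.82 in Wnt1-Cre tail pNSCs and 0.62 to 0.65 in lung cells.

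**Figure D1:**
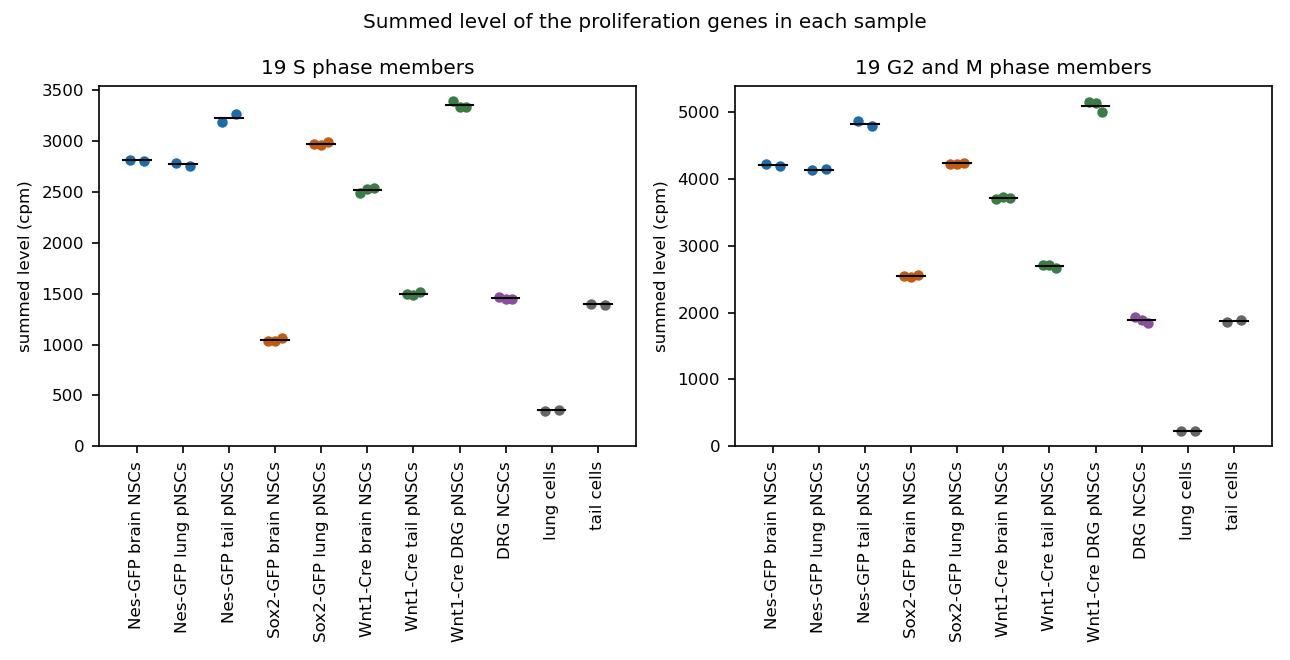
Summed cpm of the 19 S-phase members and the 19 G2 and mitosis members in each of the 28 samples, by group; points are samples and the line is the group mean. Sox2-GFP brain NSCs and Wnt1-Cre tail pNSCs lie below the other NSC and pNSC groups, and lung cells are lowest in both sets.

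Most members shared 1 profile. Sox2-GFP brain NSCs were the lowest of the 8 NSC and pNSC groups for 38 of 44 members, and lung cells were the lowest of all 11 groups for 40. DRG pNSCs were the highest NSC or pNSC group for 21 members and Nes-GFP tail pNSCs for 15. How often genes outside the set have these lowest or highest groups, or such correlations as follow, was not counted. As a description over 11 group means, which share library scaling, the correlation of a member with the median of the other members had a median of 0.973, and 37 of 44 were at 0.9 or more. The members least like the rest over the 11 groups were Ccnd3, with a correlation of -0.55, E2f1 at 0.45, Ccnb2 at 0.52, Ccnd2 at 0.64 and Ccnd1 at 0.73. Over the 8 NSC and pNSC groups alone, E2f1 was at 0.954 and Ccnd1 at 0.904, and the members least like the rest were Ccnb2 at -0.34, Ccnd2 at 0.55, Cenpe at 0.62, Ccnd3 at 0.70 and Cenpf at 0.82. Per kilobase of exon, the highest member in Nes-GFP brain NSCs was Ccnd1 at 152 cpm, followed by Ccnd2 at 120 cpm, Pcna at 96.7 cpm and Top2a at 93.7 cpm, and the lowest was Ccnd3 at 6.68 cpm. Lengths cover every annotated exon of a gene, and this order depends on them. Without division by length Ccnd3 had 58.6 cpm there, above Ccnb2 at 17.5 cpm.

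By role, the 12 licensing and helicase genes summed to 1718 and 1722 cpm in Nes-GFP brain NSCs, 602, 599 and 614 in Sox2-GFP brain NSCs and 1391, 1425 and 1419.9 in Wnt1-Cre brain NSCs. Mcm5, whose promoter holds the E2F letters shown, had 208 and 208 cpm in Nes-GFP, 91.4, 84.6 and 82.0 in Sox2-GFP and 203, 208 and 214 in Wnt1-Cre brain NSCs. Mcm6 had 322 and 315 cpm in Nes-GFP, 89.96, 88.6 and 92.2 in Sox2-GFP and 193, 193 and 188 in Wnt1-Cre brain NSCs. Sox2-GFP brain NSCs were lowest for both helicase subunits, with no overlap. The 5 genes of replication and nucleotide supply summed to 1017 and 1001 cpm in Nes-GFP, 416, 416 and 424 in Sox2-GFP and 1007, 1011 and 1026 in Wnt1-Cre brain NSCs. The 6 mitotic kinases and checkpoint genes summed to 625 and 628 cpm in Nes-GFP, 415, 409 and 402 in Sox2-GFP and 583, 584 and 590.3 in Wnt1-Cre brain NSCs, so that they too were lowest in Sox2-GFP brain NSCs. Cdc20, whose promoter holds CHR letters, had 146 and 149.7 cpm in Nes-GFP, 94.2, 93.5 and 88.8 in Sox2-GFP and 131, 138 and 140.5 in Wnt1-Cre brain NSCs. Foxm1, an activator of mitotic genes, had 159 and 159 cpm in Nes-GFP, 89.6, 90.7 and 89.7 in Sox2-GFP and 137, 135 and 129 in Wnt1-Cre brain NSCs. Mybl2, the other, had 40.2 and 39.4 cpm in Nes-GFP, 15.6, 13.3 and 12.6 in Sox2-GFP and 35.4, 33.9 and 30.8 in Wnt1-Cre brain NSCs. Both were lowest in Sox2-GFP brain NSCs.

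**Figure D2:**
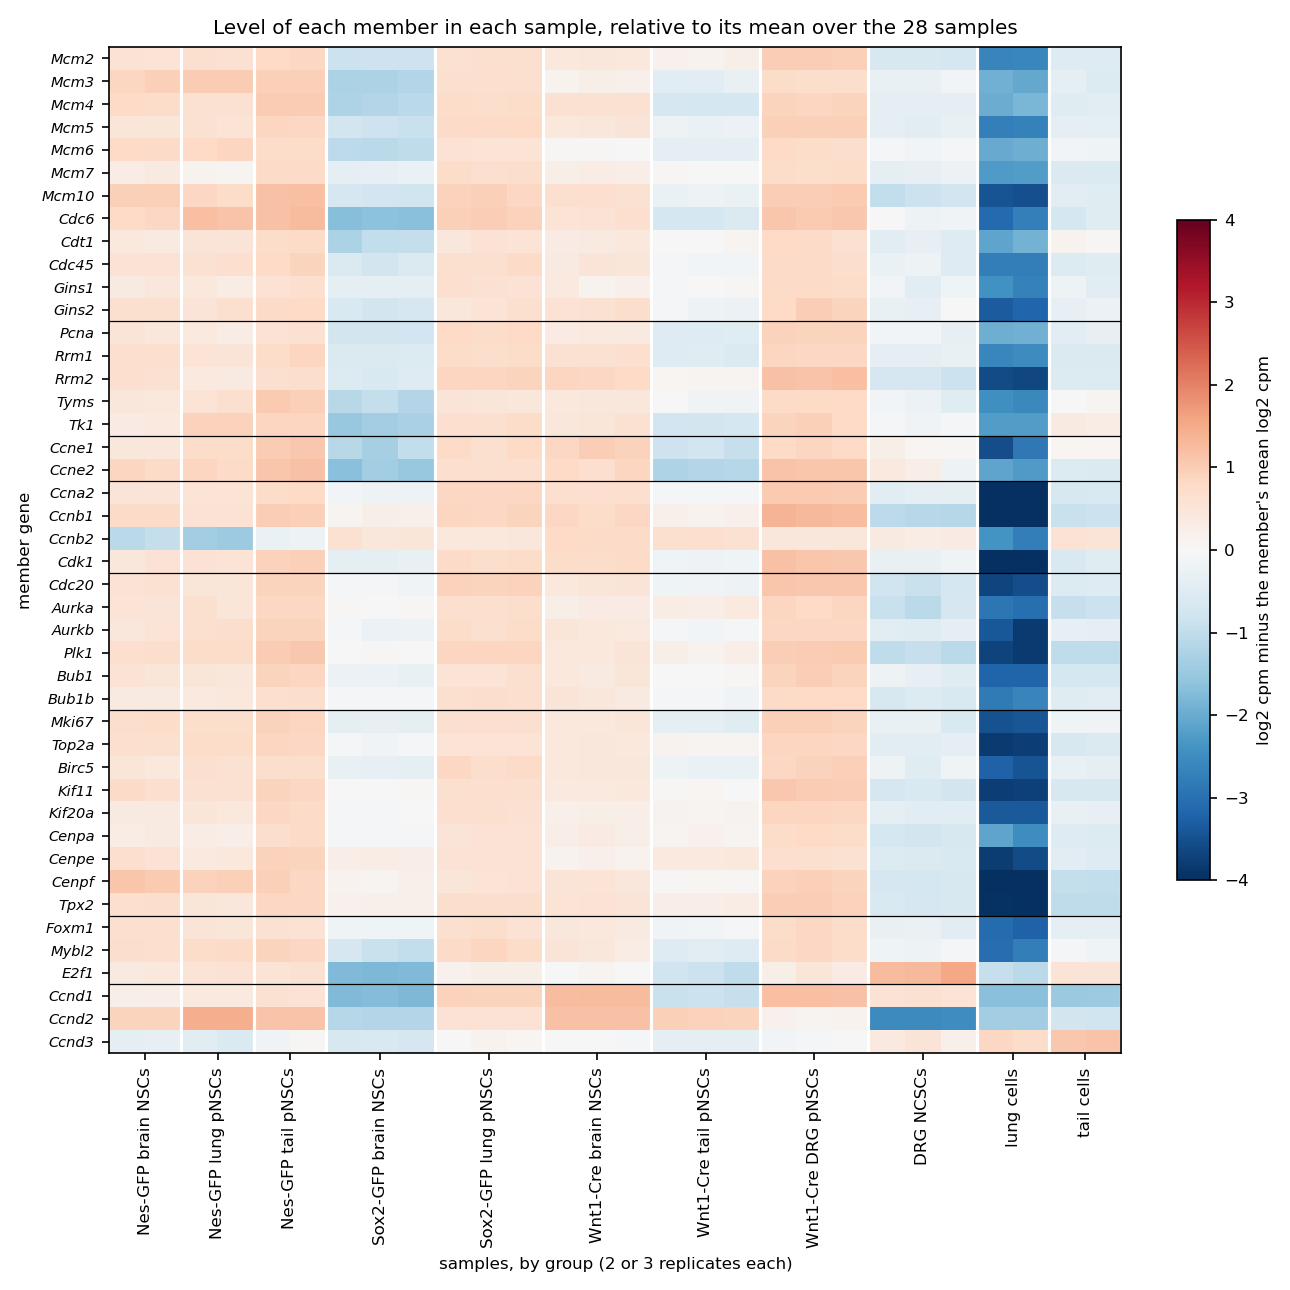
Level of each of the 44 members (rows) in each of the 28 samples (columns), as log2 cpm minus the member's mean over samples, with colours clipped at 4 on either side. Both the S-phase and the mitotic block are lowest in lung cells. Among the NSC and pNSC groups the S-phase block is lowest in Sox2-GFP brain NSCs, while Ccnb2 follows an order of its own. Over all groups, tissue cells and NCSCs included, Ccnd3 departs most from the other members. E2f1 follows the other members among the NSC and pNSC groups and departs from them in NCSCs, tail cells and lung cells.

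The comparison of Nes-GFP tail pNSCs with brain NSCs asks how close a peripheral line is to its brain counterpart. No member changed by 2-fold, where 10.9% of the 16948 genes tested did. At the adjusted p alone 35 members were higher and 2 lower in tail pNSCs, where 25.7% of all genes were higher and 23.4% lower. The median log2 difference of the members was 0.24, with a range from -0.21 for Cenpf, a kinetochore protein, to 0.75 for Ccnb2. Ccne1, the cyclin of entry into S phase, had 31.1 and 31.4 cpm in brain NSCs and 46.5 and 48.9 cpm in tail pNSCs. That was a log2 difference of 0.59 ± 0.074 (SE, adjusted p = 1.4e-14), without overlap between the groups. Mki67, the classic antigen of cycling cells, had 867 and 893 cpm in brain NSCs and 1003 and 966 in tail pNSCs (log2 difference 0.13 ± 0.03, adjusted p = 2.8e-05). Rrm2 and E2f1 did not pass, at 0.012 ± 0.035 and 0.16 ± 0.073. The 2 members below brain NSCs were Cenpf and Foxm1.

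In Nes-GFP lung pNSCs the members lay close to brain NSCs in both directions. No member changed by 2-fold, where 8.71% of all genes did, and the median log2 difference was 0.02. At the adjusted p alone 10 were higher and 15 lower, where 18.7% and 21.6% of all genes were. Tk1 had 65.2 and 67.9 cpm in brain NSCs and 99.8 and 99.4 in lung pNSCs, a log2 difference of 0.56 ± 0.05 (adjusted p = 5.0e-27). Ccnd2, which together with Ccnd1 drives G1 progression, had 1143 and 1121 cpm in brain NSCs and 1661 and 1670.4 in lung pNSCs, a difference of 0.53 ± 0.029 (adjusted p = 3.7e-75). Rrm2 was lower, from 219.8 and 213 to 181 and 178 cpm (-0.29 ± 0.035, adjusted p = 1.3e-15). The members did not move together here: Mcm2, Top2a, Mki67 and E2f1 did not pass, with differences of 0.038 ± 0.034, 0.053 ± 0.03, -0.034 ± 0.03 and 0.15 ± 0.072. Both Nes-GFP comparisons share the same 2 brain NSC samples.

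**Figure D3:**
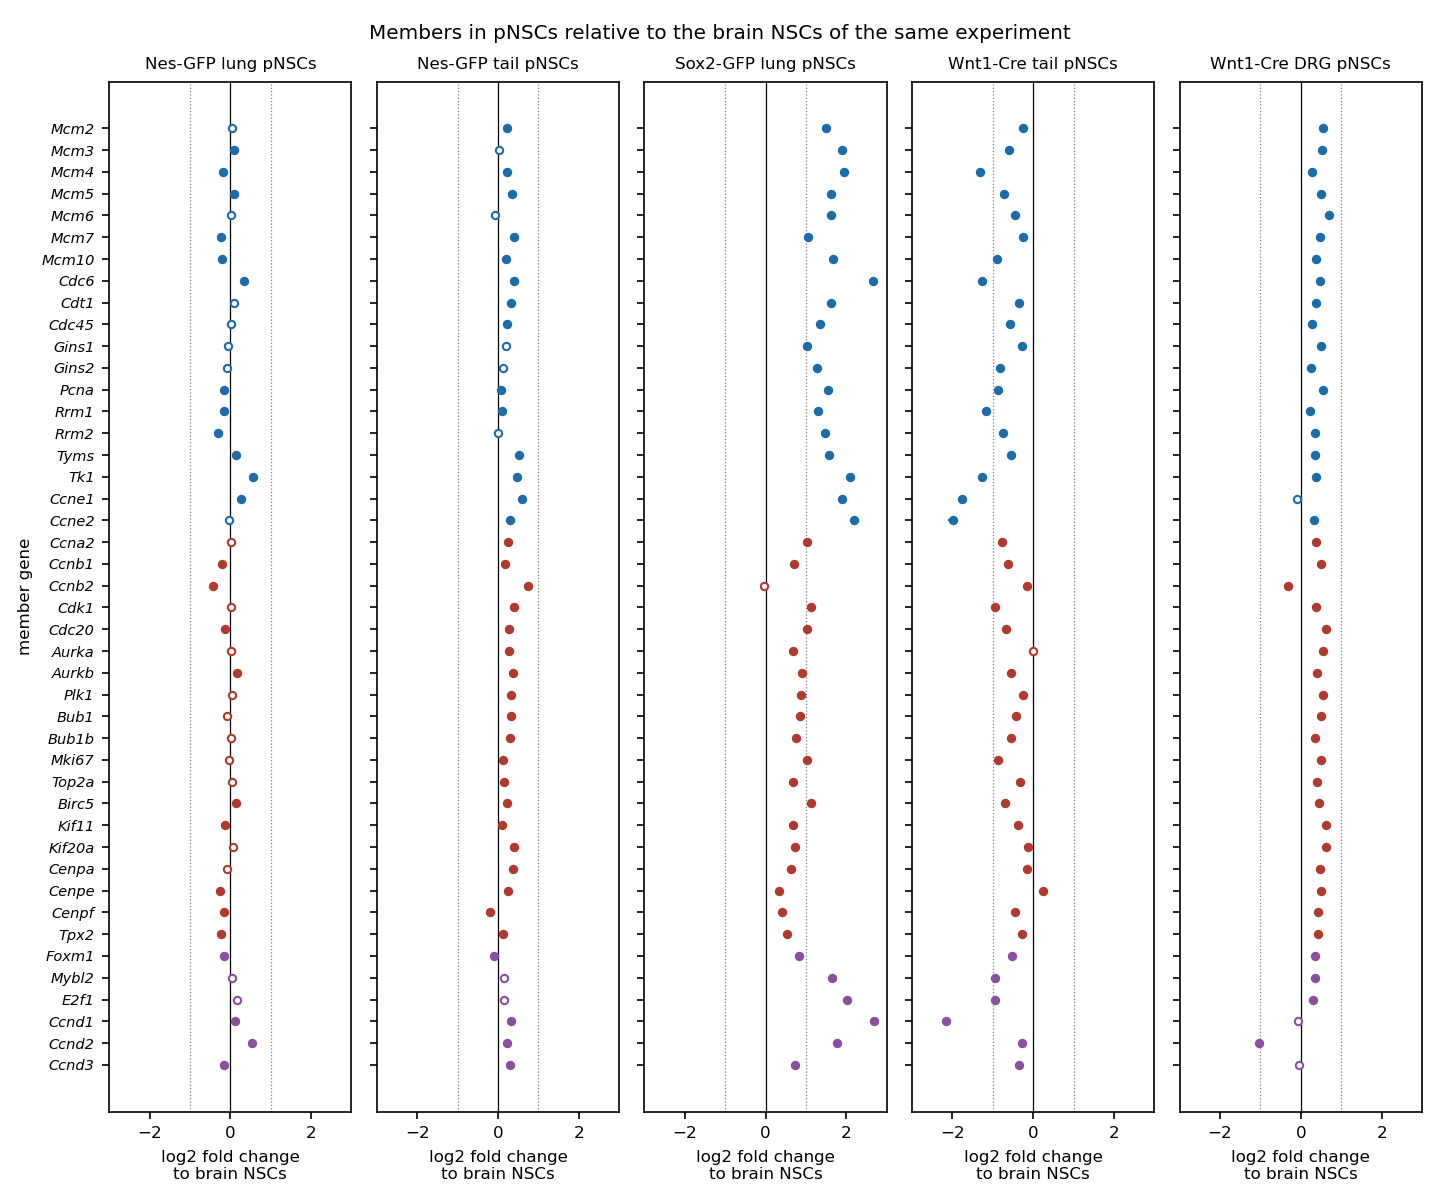
Log2 difference with its SE for each of the 44 members between a line and the brain NSCs of its own experiment, in 5 panels; filled points had an adjusted p under 0.05, blue marks S-phase, red G2 and mitosis and purple other members, and dotted lines mark a 2-fold change. In the Nes-GFP panels no point is past a dotted line. In the DRG panel most points lie above 0, with Ccnd2 past the lower dotted line. Most points lie below 0 in the Wnt1-Cre tail panel and above 0 in the Sox2-GFP panel.

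In Wnt1-Cre tail pNSCs the members were lower than in Wnt1-Cre brain NSCs. At the adjusted p 42 were lower and 1 higher, where 32.4% of the 14448 genes tested were lower and 33.1% higher, and 7 were at least 2-fold lower, where 9.05% of all genes were. The median log2 difference was -0.57, at -0.75 for S-phase and -0.42 for mitotic members, and 6 of the 7 called members were S-phase genes. Ccnd1 had 1432, 1458 and 1444 cpm in brain NSCs and 326, 332 and 321 cpm in tail pNSCs, a log2 difference of -2.16 ± 0.033 (adjusted p = 2.8e-18). All 3 tail samples lay far below all 3 brain samples. Ccne2 went from 49.9, 46.2 and 52.2 to 12.3, 12.6 and 13.0 cpm (-1.99 ± 0.11, adjusted p = 4.4e-11). Ccne1 went from 40.4, 45.3 and 43.4 to 13.1, 13.5 and 12.03 cpm (-1.76 ± 0.07, adjusted p = 4.5e-13). Both E-type cyclins, which start S phase, were thus several-fold lower in tail pNSCs with no overlap.

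Mcm4, a helicase subunit, went from 224, 223 and 226 cpm in Wnt1-Cre brain NSCs to 92.7, 90.2 and 90.6 in tail pNSCs (-1.32 ± 0.034, adjusted p = 1.5e-15). The other called members were Cdc6, the origin licensing factor, at -1.28, Tk1 at -1.27 and Rrm1 at -1.17. Mitotic genes were also lower. Mki67 had 719, 706 and 739 cpm in brain NSCs and 404, 409 and 383 in tail pNSCs (-0.87 ± 0.061, adjusted p = 1.2e-09). Ccnb1, the mitotic cyclin, had 146, 138 and 145 cpm in brain NSCs and 95.4, 90.8 and 94.8 in tail pNSCs (-0.62 ± 0.043, adjusted p = 7.3e-10). Cenpe, a kinetochore motor, was the single member that was higher, at 0.23 ± 0.036, and Aurka, a spindle pole kinase, did not pass at 0.0032 ± 0.075. Tail pNSC libraries were deeper than those of brain NSCs, at 19648349 to 22548268 against 9846360 to 11315870 reads, and held 511.8 to 523.6 cpm of a list of 7 mesenchymal markers, none of them at 0, against 35.0 to 37.6 cpm in brain NSCs. The part of either in the result was not tested.

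DRG pNSCs of the same experiment lay on the other side of the brain NSCs. At the adjusted p 39 members were higher and 2 lower, where 23.4% of all genes were higher and 22.6% lower. The changes were small: the median log2 difference was 0.40, and the 1 member past 2-fold was Ccnd2, where 9.53% of all genes passed. Mcm2 had 218, 225 and 219 cpm in brain NSCs and 322, 324 and 319 in DRG pNSCs (0.55 ± 0.035, adjusted p = 1.2e-09). Top2a, which untangles replicated chromosomes, had 721, 733 and 711 cpm in brain NSCs and 969, 961 and 945 in DRG pNSCs (0.41 ± 0.032, adjusted p = 1.2e-08). In both genes the groups did not overlap. Ccnd2 went the opposite way, from 1369, 1385 and 1376 to 685, 660.2 and 667 cpm (-1.04 ± 0.035, adjusted p = 1.7e-13). Ccnd1 and Ccne2 showed differences of -0.062 ± 0.032 and 0.33 ± 0.10 (adjusted p = 0.12 and 0.011).

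In the Sox2-GFP experiment the direction was opposite to that in Wnt1-Cre tail pNSCs. In Sox2-GFP lung pNSCs 43 members were higher than in Sox2-GFP brain NSCs at the adjusted p, where 32.7% of the 16234 genes tested were, and 28 were at least 2-fold higher, where 5.76% of all genes were. All 19 S-phase members were among the 28, with a median log2 difference of 1.61, beside 5 of 19 mitotic members, with a median of 0.73. Ccnd1 had 175, 181 and 173 cpm in brain NSCs and 1132, 1117 and 1112 in lung pNSCs, a log2 difference of 2.69 ± 0.021. Many adjusted p-values of this experiment and of the tissue comparisons were too small to be represented, so the SE is given in their place. Cdc6 had 6.65, 7.01 and 6.79 cpm in brain NSCs and 42.4, 43.4 and 41.5 in lung pNSCs (2.66 ± 0.072). Ccne2 had 8.93, 11.1 and 10.0 cpm in brain NSCs and 46.2, 44.4 and 45.9 in lung pNSCs (2.196 ± 0.064). These genes of S-phase entry were far apart and their groups did not overlap.

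Tk1 went from 18.3, 19.98 and 21.1 to 82.9, 80.9 and 85.9 cpm (2.10 ± 0.047), and E2f1, the activator of S-phase genes, from 7.88, 7.66 and 7.89 to 30.4, 31.2 and 31.8 cpm (2.02 ± 0.075). Mcm2 went from 90.7, 92.5 and 91.6 to 250.3, 256 and 256 cpm (1.496 ± 0.026), and Pcna from 99.8, 99.0 and 98.9 to 289.9, 279.6 and 289 cpm (1.55 ± 0.026). Licensing, replication and nucleotide supply were thus all higher in lung pNSCs. Of the mitotic genes, Mki67 went from 413, 419.9 and 414 to 829, 842 and 822 cpm (1.02 ± 0.019). Top2a went from 506, 488 and 505 to 785, 782 and 783 cpm (0.67 ± 0.019), and Ccnb1 from 88.9, 95.6 and 94.2 to 149, 147 and 153 cpm (0.71 ± 0.029). Their groups did not overlap either, at smaller differences. Ccnb2 did not pass, at -0.035 ± 0.043. Sox2-GFP brain NSCs also held 69.0 to 73.4 cpm of a list of 6 neural crest and Schwann markers, with Foxd3 at 0, against 10.5 to 11.1 cpm in the lung pNSCs. The 7 mesenchymal markers, with Col1a2 at 0 in these brain NSCs and Lum in the lung pNSCs, summed to 95.4 to 102.4 cpm against 21.5 to 24.7 cpm. The part of either list in the result was not tested.

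The lung pNSC against brain NSC effects of the 2 reporters differed by a test of the difference itself, fitted over all samples. It was lower under Nes-GFP than under Sox2-GFP for all 44 members at the adjusted p, where 24.6% of the 17393 genes tested were, and for 26 by at least 2-fold, where 5.89% of all genes were. The 26 held all 19 S-phase members and 3 of 19 mitotic members, and the median over all members was -1.19. The 4 largest were Ccnd1 at -2.57 ± 0.044, Cdc6 at -2.31 ± 0.10, Ccne2 at -2.22 ± 0.13 and Mcm4 at -2.11 ± 0.052. For the tail, the Nes-GFP effect was higher than the Wnt1-Cre effect for 43 members, where 24.2% of all genes were, and for 15 by at least 2-fold, where 7.05% of all genes were. These 15 held 9 S-phase and 3 mitotic members, with a median over all members of 0.83. The largest were Ccnd1 at 2.49 ± 0.044, Ccne1 at 2.34 ± 0.11, Ccne2 at 2.29 ± 0.13 and Tk1 at 1.74 ± 0.075. Reporter, line, age and experiment cannot be told apart in these differences.

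Groups of the same kind were also compared across experiments, in pairs chosen after the levels were seen. Sox2-GFP brain NSCs had 22 members at least 2-fold below Nes-GFP brain NSCs, where 7.09% of all genes were, and 17 of these were S-phase and 1 mitotic. Only Ccnb2 was at least 2-fold higher there, where 11.9% of all genes were. Against Wnt1-Cre brain NSCs there were again 22 lower, 17 of them S-phase, where 7.68% of all genes were. Sox2-GFP lung pNSCs had no member 2-fold below Nes-GFP lung pNSCs, where 4.46% of all genes were, and 1 above, Ccnb2, where 5.47% were. Cdc6 had 50.3 and 48.0 cpm in Nes-GFP lung pNSCs against 42.4, 43.4 and 41.5 cpm in Sox2-GFP lung pNSCs, and 37.9 and 38.3 against 6.65, 7.01 and 6.79 cpm in the brain NSCs. The lung lines were thus close to each other and the brain lines far apart for this gene. Wnt1-Cre tail pNSCs had 18 members at least 2-fold below Nes-GFP tail pNSCs, 12 of them S-phase, where 6.50% of all genes were. Wnt1-Cre brain NSCs had none 2-fold below Nes-GFP brain NSCs, where 3.35% of all genes were, and 2 above, Ccnb2 and Ccnd1, where 9.12% were. In these comparisons the experiment and the line cannot be told apart.

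Lung cells, from the organ that gave the lung pNSCs, held few transcripts of the set. The Nes-GFP pNSCs came from adult lung and the Sox2-GFP pNSCs from postnatal lung. The same 2 lung samples, whose age is not in the labels, were set against both. At least 1 of the 2 comparisons is thus not matched for age, and the part of age was not tested. In Nes-GFP lung pNSCs 43 members were at least 2-fold higher than in lung cells, where 20.2% of all genes were, and 1 was lower, where 34.9% were, with a median log2 difference of 3.51. In Sox2-GFP lung pNSCs 43 were also higher against the same 2 lung samples, where 21.3% of all genes were, with a median of 3.62. Ccnb1 had 3.03 and 2.93 cpm in lung cells, 123 and 122 in Nes-GFP lung pNSCs and 149, 147 and 153 in Sox2-GFP lung pNSCs. Its log2 differences from lung cells were 5.29 ± 0.086 and 5.61 ± 0.071, the largest of the set. Cdk1, the kinase that Ccnb1 activates, had 5.57 and 6.04 cpm in lung cells, 152 and 150.1 in Nes-GFP lung pNSCs and 173, 167 and 172 in Sox2-GFP lung pNSCs, with differences of 4.64 ± 0.07 and 4.84 ± 0.06. Cenpf differed by 5.08 ± 0.055 and 4.71 ± 0.048, and Ccna2, the cyclin of S and G2 phase, by 4.50 ± 0.06 and 4.81 ± 0.051.

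The median log2 difference of Nes-GFP lung pNSCs from lung cells was 4.10 for mitotic and 3.03 for S-phase members. Mcm2 had 26.0 and 26.5 cpm in lung cells and 255 and 247 in Nes-GFP lung pNSCs (3.19 ± 0.048), while Pcna went from 43.1 and 44.1 cpm in lung cells to 217 and 206 in the pNSCs (2.21 ± 0.044). The exception among all 44 was Ccnd3, the D-type cyclin of many non-neural and blood cells. It had 133 and 124 cpm in lung cells, 55.3 and 50.8 in Nes-GFP lung pNSCs and 76.5, 83.0 and 79.4 in Sox2-GFP lung pNSCs, with differences of -1.35 ± 0.047 (called lower) and -0.73 ± 0.034 (lower at the adjusted p). Lung cells also held 24802 to 25302 cpm of 6 epithelial, 4887 to 4969 of 6 endothelial and 4552 to 4576 of 8 leukocyte markers, none of them at 0. In the 2 lung pNSC groups these lists held at most 0.176, 5.83 and 4.48 cpm, and Scgb1a1, Krt5, Krt14, Cdh5, Cldn5, Tyrobp and Cd3e were at 0 in both. The cell types of the organ and its share of cycling cells cannot be told apart.

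Tail cells held far more of the set than lung cells, and the gap to their pNSCs was smaller. In Nes-GFP tail pNSCs 29 members were at least 2-fold higher than in tail cells, where 14.1% of all genes were, and 1 was lower, where 32.6% were. The median log2 difference was 1.23. Plk1, the kinase of mitotic entry, had 34.8 and 34.8 cpm in tail cells and 143 and 150.2 in tail pNSCs (1.97 ± 0.053). Ccnd1 went from 216 and 218 cpm in tail cells to 915 and 907 in tail pNSCs (1.97 ± 0.033), and Ccnd2 from 368 and 349 to 1356 and 1359 cpm (1.82 ± 0.03). These groups did not overlap. Tpx2, a spindle assembly factor, differed by 1.75 ± 0.039. Ccnd3 was the called fall, from 160.5 and 166 to 69.1 and 78.5 cpm (-1.24 ± 0.044). E2f1 did not pass, with 39.0 and 38.6 cpm in tail cells and 38.8 and 41.0 in tail pNSCs (-0.062 ± 0.074, adjusted p = 0.43). Tail cells held 73605 to 75053 cpm of the mesenchymal markers, with none at 0. Their neural stem cell markers summed to 116 cpm with Sox1 at 0, against 7178 to 7267 cpm in tail pNSCs, a far wider gap than that of the S-phase sums.

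NCSCs, grown from the DRG as neural crest cultures, had less of the set than Wnt1-Cre brain NSCs. Of the members, 14 were at least 2-fold lower and 1 higher, where 14.8% and 22.1% of all genes were, and the median log2 difference was -0.80. The mitotic members were lower by a median of 1.01 on the log2 scale with 10 of 19 called, and the S-phase members by 0.77 with 3 called. Ccnd2 had 1369, 1385 and 1376 cpm in brain NSCs and 103, 105 and 110.0 in NCSCs (-3.70 ± 0.039, adjusted p = 1.7e-21). Ccnb1 went from 146, 138 and 145 cpm in brain NSCs to 39.8, 38.4 and 37.4 in NCSCs (-1.89 ± 0.046, adjusted p = 1.0e-16), and Rrm2 from 250.04, 248 and 244 to 86.9, 86.9 and 75.9 cpm (-1.57 ± 0.046, adjusted p = 1.2e-15). None of these groups overlapped. Mcm10, a replication initiation factor, showed a difference of -1.52 ± 0.062. E2f1 was the called rise, with 26.7, 29.1 and 27.1 cpm in brain NSCs and 63.8, 65.6 and 78.0 in NCSCs (1.32 ± 0.085, adjusted p = 1.3e-10). Without the third NCSC sample 15 members were called lower and 1 higher, and E2f1 differed by 1.23 and Ccnd2 by -3.73.

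NCSCs carried 4291 to 4395 cpm of neural crest and Schwann markers, 7026 to 7140 cpm of mesenchymal markers and 636.3 to 666.1 cpm of leukocyte markers, of which only Cd3e was at 0 in every NCSC sample. In the Wnt1-Cre lines these lists held no more than 23.5, 523.6 and 3.18 cpm. Their part in the differences was not tested. The NCSCs came from adult mice and the Wnt1-Cre pNSCs from postnatal tissue, and the part of age was not tested either. Against these NCSCs, DRG pNSCs had 33 members at least 2-fold higher and 1 lower, where 15.1% and 23.3% of all genes were, with a median log2 difference of 1.23. The largest rises were Ccnd2 (2.67 ± 0.038), Ccnb1 (2.39 ± 0.046), Plk1 (2.02 ± 0.05) and Rrm2 (1.91 ± 0.045), and the fall was E2f1 (-1.02 ± 0.083). Without the third NCSC sample E2f1 differed by -0.93 and was no longer called, and 34 were higher. Tail pNSCs had 4 members at least 2-fold higher than NCSCs and 3 lower, where 15.3% and 22.6% of all genes were. The rises were Ccnd2 (3.43 ± 0.038), Ccnb1 (1.27 ± 0.045), Plk1 (1.20 ± 0.049) and Aurka (1.18 ± 0.077), all of G2 and mitosis except Ccnd2. The falls were E2f1 (-2.26 ± 0.085), Ccnd1 (-1.47 ± 0.032) and Ccne2 (-1.38 ± 0.11), and Ccne1 joined them at -1.01 without the third NCSC sample. The 2 pNSC comparisons share the 3 NCSC samples.

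The genes of G1 differed in which groups were lowest and highest. Ccnd1 ran from 175, 181 and 173 cpm in Sox2-GFP brain NSCs and 326, 332 and 321 in Wnt1-Cre tail pNSCs to 1432, 1458 and 1444 in Wnt1-Cre brain NSCs. Ccnd2 was 103, 105 and 110.0 cpm in NCSCs and 1661 and 1670.4 in Nes-GFP lung pNSCs, its lowest and highest groups. Ccnd3 was lowest in Sox2-GFP brain NSCs, at 48.7, 49.98 and 47.5 cpm, and highest in tail cells, at 160.5 and 166 cpm. Ccnd1 and Ccnd3 thus had the same lowest group, and each D-type cyclin had another highest group. Cdk6, a kinase partner of the D-type cyclins and not one of the 44, had 27.6, 25.7 and 24.4 cpm in Wnt1-Cre brain NSCs and 164, 163 and 157 in Wnt1-Cre tail pNSCs (2.63 ± 0.081, adjusted p = 1.5e-14). It moved opposite to Ccnd1 in that line. In Sox2-GFP cells Cdk6 had 8.46, 9.49 and 9.63 cpm in brain NSCs and 1.28, 1.246 and 1.01 in lung pNSCs (-2.94 ± 0.15), again opposite to Ccnd1. In the Nes-GFP experiment it differed from brain NSCs by 1.17 ± 0.094 in tail pNSCs and -1.07 ± 0.13 in lung pNSCs. Ccnd1 differed by 0.32 ± 0.031 and 0.12 ± 0.031 there, so that both moved the same way in Nes-GFP tail pNSCs and opposite ways in lung pNSCs.

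**Figure D4:**
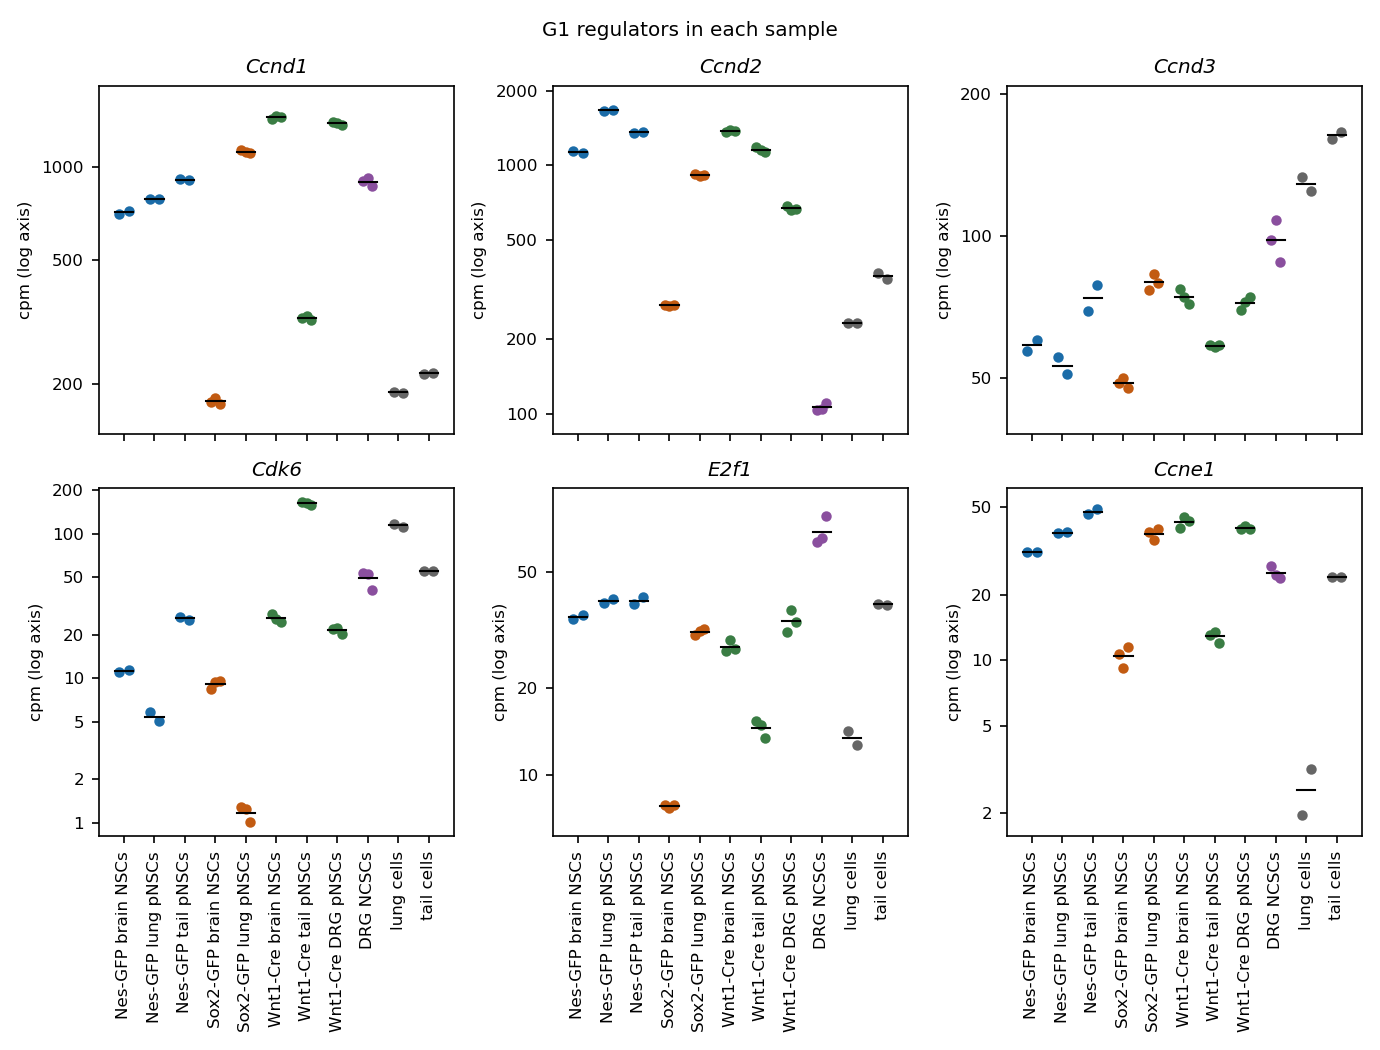
Cpm of Ccnd1, Ccnd2, Ccnd3, Cdk6, E2f1 and Ccne1 in each sample by group, on log axes; points are samples. Ccnd1 and Ccne1 are low and Cdk6 is high in Wnt1-Cre tail pNSCs, while Ccnd2 is lowest in NCSCs and E2f1 is higher there than in Wnt1-Cre brain NSCs.

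Lists of other cell cycle genes, also chosen by name with earlier results known, were counted in the same fits. Of 50 other S-phase genes, 29 were called higher and none lower in Sox2-GFP lung pNSCs against brain NSCs, beside 5 and none of 50 other G2 and mitosis genes, where 5.76% of all genes were higher. The largest rises were Chaf1b, a subunit of the histone chaperone CAF-1, at 2.60 ± 0.065, and Ung, which removes uracil from DNA, at 2.54 ± 0.078. In Wnt1-Cre tail pNSCs 12 of the other S-phase genes were called lower and none higher against brain NSCs, and of the other mitotic genes 2 lower and 1 higher, where 9.05% of all genes were lower and 9.16% higher. Chaf1b was at -1.66 ± 0.064 and Orc1, a subunit of the origin recognition complex, at -1.59 ± 0.12. The mitotic gene that was higher was Cdc25b, the phosphatase that activates Cdk1, at 1.30 ± 0.051. In NCSCs 22 of the other mitotic genes were called lower, where 14.8% of all genes were, and 7 of the other S-phase genes, a share close to that of all genes. The largest falls were Cenpm (-1.71 ± 0.09) and Ccnf (-1.68 ± 0.047). In Nes-GFP tail pNSCs, Nes-GFP lung pNSCs and DRG pNSCs none of these 100 genes was called against brain NSCs. Against lung cells 44 of the other S-phase and 49 of the other mitotic genes were called higher in Nes-GFP lung pNSCs, where 20.2% of all genes were, and against tail cells 18 and 33 in tail pNSCs, where 14.1% were.

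Ccnb2, a B-type cyclin that is not essential where Ccnb1 is, stood apart from the other mitotic genes and was singled out after its values were seen. It had 16.6 and 18.4 cpm in Nes-GFP brain NSCs, 13.4 and 12.9 in Nes-GFP lung pNSCs and 29.5 and 30.5 in Nes-GFP tail pNSCs. It had 53.7, 48.0 and 49.0 cpm in Sox2-GFP brain NSCs and 47.8, 47.6 and 48.5 in Sox2-GFP lung pNSCs, and 60.9, 60.7 and 59.9 in Wnt1-Cre brain NSCs. The 3 Nes-GFP lines were thus the lowest of the 8 NSC and pNSC groups for Ccnb2, while Ccnb1 had 139.7 and 139 cpm in Nes-GFP brain NSCs beside 146, 138 and 145 cpm in Wnt1-Cre brain NSCs. The ratio of Ccnb2 to Ccnb1 was 0.106 to 0.192 in the Nes-GFP lines, 0.230 to 0.617 in the other NSC and pNSC groups, 1.13 to 1.19 in NCSCs, 1.11 to 1.19 in tail cells and 1.79 to 2.21 in lung cells. Across experiments, Ccnb2 differed from the Nes-GFP counterpart by 1.49 ± 0.064 in Sox2-GFP brain NSCs, 1.77 ± 0.065 in Wnt1-Cre brain NSCs and 1.88 ± 0.067 in Sox2-GFP lung pNSCs, and by 0.87 ± 0.058, under 2-fold, in Wnt1-Cre tail pNSCs. Tail cells and lung cells belong to the Nes-GFP experiment and had 53.0 and 50.3 cpm and 6.69 and 5.25 cpm of Ccnb2. The annotation holds a pseudogene named after Ccnb2, Ccnb2-ps, and the counting mode for shared reads is not given in the sources used here.

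**Figure D5:**
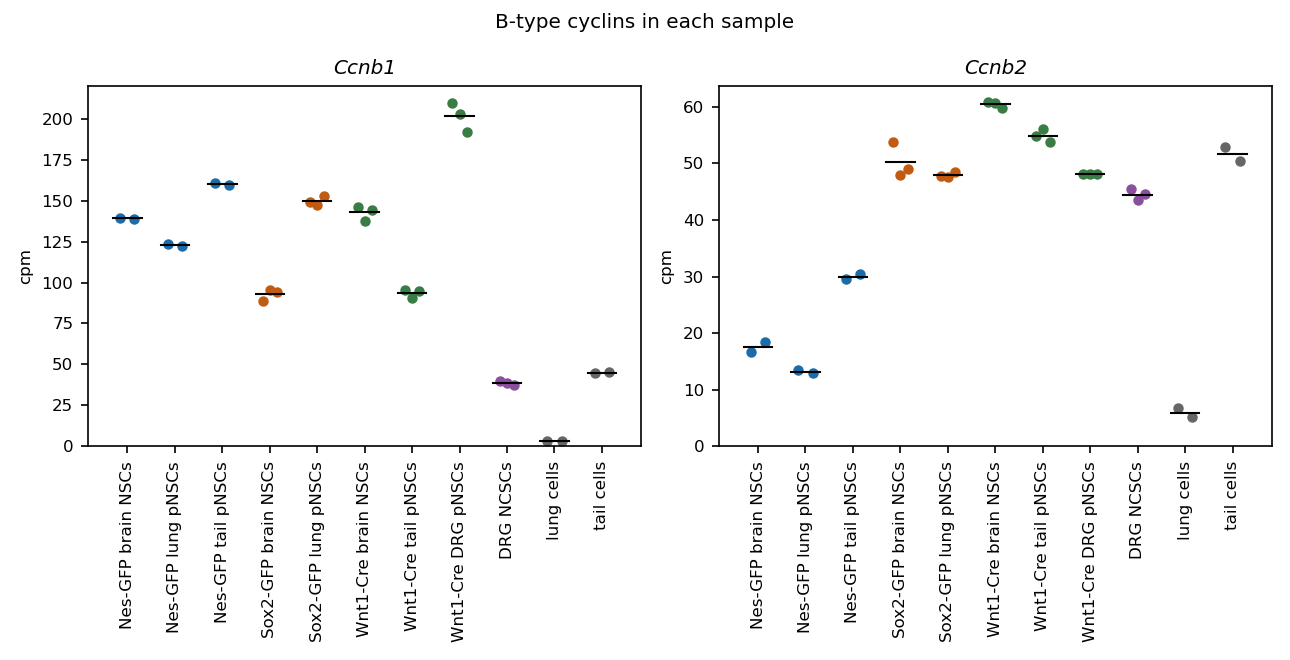
Cpm of Ccnb1 and Ccnb2 in each sample by group; points are samples. Ccnb1 is high in every NSC and pNSC group and low in lung cells, and Ccnb2 is lower in the 3 Nes-GFP lines than in the lines of the other experiments.

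By position the members are spread over 17 chromosomes of GRCm38, so they do not form a linked block. The exons of 14 members overlap an exon of another annotated gene, among them Ccnd1, Ccnd2, Ccnd3, Ccne2, Tk1, Plk1, Cdc20 and Mcm7, whose locus also holds Mir25, Mir93 and Mir106b. The library kit did not mark strand, so reads in such exons cannot be assigned to 1 of the 2 genes. Pseudogenes named after Pcna, Tyms, Ccnb1, Ccnb2 and Ccnd3 are also annotated, and reads shared with them make those 5 counts less certain.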

How the data were processed

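Polyadenylated RNA of 28 samples had been sequenced by the authors as single-end reads from libraries made with a kit that does not mark strand, and aligned to GRCm38. The submitters' processing notes name HISAT2, Cufflinks and HTSeq, and the strand setting, the counting mode and the annotation release are not given in the sources used here. The deposited values are raw counts of reads per gene for 28244 genes, 9808246 to 22637031 per sample. The groups came from the sample labels. The 44 genes, the lists of other cell cycle genes and the markers were chosen with earlier results of these data known.

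Each experiment was fitted alone with edgeR 4.0.16 in R 4.3.3 (quasi-likelihood test, TMM scaling, filterByExpr with a minimum count of 10 and a minimum total of 15, Benjamini-Hochberg adjustment), leaving 16948 genes in the Nes-GFP, 14448 in the Wnt1-Cre and 16234 in the Sox2-GFP experiment, whose fit also held the 2 lung cell samples. All 44 members passed the filter in each fit. Effects and levels across experiments came from 1 fit of all 28 samples over 17393 genes, and the direct comparisons across experiments were added after the levels had been seen. Levels in cpm use TMM factors over all 28 samples, so small differences can depart from the fitted log2 differences, which are given ± SE. Full statistics are given for the members called with up to 4 largest rises and falls in a comparison, and for Mcm2, Pcna, Rrm2, Ccne1, Ccne2, Ccnb1, Mki67, Top2a, E2f1 and the D-type cyclins. Alternatives were DESeq2 1.42.0, upper-quartile scaling, no filter, a fold limit of 1.5, only the groups compared, the replicate number as a block, and leaving out each replicate. The scripts were tested on simulated counts. Figures were drawn with matplotlib 3.10.9 in Python 3.11.15. Promoters and positions came from RefSeq and GENCODE annotations of GRCm38.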

Additional observations from a re-analysis of the deposited data

Results flagged for a closer look

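The difference between lung pNSCs and brain NSCs was not the same in the Nes-GFP and Sox2-GFP experiments, by an edgeR test of the difference between the effects. For 26 of the 44 members the effect differed by at least 2-fold, and in each the Nes-GFP effect was the lower, where 5.89% of all genes were. The log2 difference between the effects was -2.57 for Ccnd1, -2.31 for Cdc6, -2.22 for Ccne2 and -2.11 for Mcm4. The difference between tail pNSCs and brain NSCs was likewise not the same in the Nes-GFP and Wnt1-Cre experiments, and 15 members differed by at least 2-fold, with the Nes-GFP effect the higher, where 7.05% of all genes were. The log2 difference between these effects was 2.49 for Ccnd1, 2.34 for Ccne1, 2.29 for Ccne2 and 1.74 for Tk1. The same Nes-GFP brain NSC samples enter both. Groups held 2 or 3 samples, too few for a test of single outlying samples.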

How the results depend on the processing

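A fold limit of 1.5 in place of 2 moved the number of members called to 2 from 0 in Nes-GFP tail pNSCs against brain NSCs, to 21 from 7 in Wnt1-Cre tail pNSCs, to 5 from 1 in DRG pNSCs and to 36 from 15 in NCSCs, each against brain NSCs. It gave 19 in place of 7 for Wnt1-Cre tail pNSCs against NCSCs, 41 in place of 26 for the difference between the lung effects and 31 in place of 15 for that between the tail effects. The share of all genes past 1.5-fold is not given here, so these counts do not set the members apart from other genes. At the 2-fold limit the counts stayed within 1.5 times of the main ones under DESeq2, upper-quartile scaling, no filter and only the groups compared, which does not apply to the differences between effects. Upper-quartile scaling gave 23 called in Sox2-GFP lung pNSCs against brain NSCs in place of 28, and ended the call of E2f1 in DRG pNSCs against NCSCs. Leaving out 1 replicate gave 0 to 0 called in both Nes-GFP lines against brain NSCs, 29 to 31 and 43 to 44 in Nes-GFP tail and lung pNSCs against tissue, 7 to 7 in Wnt1-Cre tail pNSCs, 1 to 1 in DRG pNSCs and 14 to 16 in NCSCs against brain NSCs. It gave 7 to 8 in tail pNSCs and 34 to 37 in DRG pNSCs against NCSCs, 27 to 28 and 43 to 43 in Sox2-GFP lung pNSCs against brain NSCs and lung cells, and 26 to 26 and 14 to 16 for the lung and tail differences. Where it left 1 sample in a group, that sample was assumed to vary like the others. Samples with the same replicate number did not deviate together (correlations of -0.0139 to 0.0509), and the replicate block left all 13 counts as they were, at 0, 0, 30, 44, 7, 1, 15, 7, 34, 28, 43, 26 and 15. Over all settings, 1842 values of single genes kept their direction and side of the threshold, 10 passed it, 13 lost it and 9 changed sign, all 9 near 0 and none past the threshold. Of the medians over the members under DESeq2, upper-quartile scaling and no filter, 18 moved by more than the spread between replicates, 21 did not and 0 changed sign, with a largest move of 0.087 on the log2 scale. For Rrm2 in Nes-GFP tail pNSCs against brain NSCs the value was -0.000156 under upper-quartile scaling, -0.00196 without a filter, -0.00788 with only the 2 groups, -0.0377 without tail pNSC replicate 2 and -0.0162 without brain NSC replicate 2 (range without 1 replicate -0.0377 to 0.0574). Ccne2 in Nes-GFP lung pNSCs against brain NSCs was 0.0325 without brain NSC replicate 1 and 0.00643 without lung pNSC replicate 2 (range -0.0974 to 0.0325). Mki67 in Wnt1-Cre tail pNSCs against NCSCs was 0.0117 without NCSC replicate 1 and 0.00905 without NCSC replicate 2 (range -0.133 to 0.0117), and passed the threshold at -0.133 without NCSC replicate 3. The causes were not tested. The lowest count of a member was 36 reads, so depth did not leave any member undetected.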
